A study of Rattus norvegicus with 6 samples.

Results

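The 10 genes followed here move, hold or sense calcium, and were read in the mesenterial fat of newborn rats: the plasma membrane pumps Atp2b1 and Atp2b4, the exchanger Slc8a1, the reticulum pump Atp2a2, the release channel Itpr1, the entry channels Trpv5 and Trpv6, the buffers S100g and Calb1, and the receptor Casr. The members are the probe sets that the platform annotation maps to exactly 1 symbol, that symbol being 1 of these 10. They came to 18 probe sets, out of 14217 genes named in this way on the array. The pups were wildtype Sprague-Dawley rats, an outbred laboratory strain. The dams of the adequate group were fed 1000 IU of vitamin D per kg of diet (3 arrays), and those of the deficient group 0 IU per kg (3 arrays). Total RNA of the tissue was labelled with biotin and hybridised to Affymetrix Rat Genome 230 2.0 arrays. Litter and sex are not labelled, and nothing says that each array is a separate pup, so the p-values measure only the spread between these samples, which may be technical. With 3 arrays a diet, precision is limited throughout.

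Cells keep free calcium low in the cytosol by pumping it out through the plasma membrane and back into the endoplasmic reticulum, and by exchanging it for sodium. In the intestine and the kidney, calcium also crosses the cell layer: it enters through Trpv6 or Trpv5, is carried by the calbindins encoded by S100g and Calb1, and leaves through Atp2b1 and Slc8a1. The genes of this route are textbook targets of the active vitamin D hormone in those epithelia, while Atp2a2 and Itpr1 serve calcium storage and release in most cells.

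Upstream sequence is shown for 3 members, the pumps Atp2b1 and Atp2a2 and the epithelial channel Trpv6. RefSeq's promoter table for rat (GRCr8) held 8 of the 10 members, all but S100g and Calb1. Each line below gives the 250 bases before the gene's start, 5′ to 3′ on the gene's own strand, and capitals mark matches on either strand to GGGCGG, the GC box bound by Sp1, or to AGGTCA, the hexamer bound by many nuclear receptors. The windows are Atp2b1 at chr7:35622211-35622460 (plus strand), Atp2a2 at chr12:39733269-39733518 (plus strand) and Trpv6 at chr4:71489668-71489917 (minus strand).
Atp2b1: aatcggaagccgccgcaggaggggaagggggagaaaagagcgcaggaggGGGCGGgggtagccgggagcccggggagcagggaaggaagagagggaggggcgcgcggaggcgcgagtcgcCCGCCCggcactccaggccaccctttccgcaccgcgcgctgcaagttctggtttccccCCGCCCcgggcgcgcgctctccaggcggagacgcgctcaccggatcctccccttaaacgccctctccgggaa
Atp2a2: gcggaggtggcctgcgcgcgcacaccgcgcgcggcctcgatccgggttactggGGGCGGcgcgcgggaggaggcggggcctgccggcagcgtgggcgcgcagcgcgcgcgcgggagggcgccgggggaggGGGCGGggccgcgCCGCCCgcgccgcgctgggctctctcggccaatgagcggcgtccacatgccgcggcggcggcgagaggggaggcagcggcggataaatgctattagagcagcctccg
Trpv6: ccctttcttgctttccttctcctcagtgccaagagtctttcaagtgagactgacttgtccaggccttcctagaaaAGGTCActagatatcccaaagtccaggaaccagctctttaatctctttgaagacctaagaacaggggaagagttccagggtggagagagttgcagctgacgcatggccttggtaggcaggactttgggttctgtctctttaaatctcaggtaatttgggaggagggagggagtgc
The windows of Atp2b1 and Atp2a2 were 72.8% and 80.0% G and C, against a median of 51.2% over all 33469 promoters, and each held 3 GC boxes. GGGCGG was found in 30.5% of all these windows and, among the members, in these 2 of 8. Other broadly used members lacked it: Atp2b4 held 0 GC boxes at 46.4% G and C, and Itpr1 0 at 62.0%. The windows shown therefore do not stand for all pumps or all broadly used members. The Trpv6 window was 49.2% G and C and held 1 AGGTCA, a motif found in 14.1% of all windows and, among the members, in Trpv6 and Casr. The spaced repeat known as the DR3 vitamin D response element was found in 0.0926% of all windows and in 0 of the 8 members. Both strands were searched for each motif, a DR3 repeat can itself hold AGGTCA, and a match is a description of the letters only.

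The deposited values are MAS5 signals in linear intensity units, scaled alike on every array. Probe sets were tested with limma where their mean log2 signal over the 6 arrays was at least 6.46, a signal of 88.2, which kept 18625 probe sets. Of the 18 member probe sets 11 were tested, from 6 genes (Atp2b1, Slc8a1, Atp2a2, Itpr1, Trpv5 and Calb1). Atp2b4, Trpv6, S100g and Casr lay below the filter, as did 1 further probe set each of Slc8a1, Atp2a2 and Trpv5. As a check of the tissue, 4 of 7 adipocyte markers passed the filter, among them Fabp4 at 1581 to 2821, but Adipoq (11.1 to 47.8), Plin1 (4.31 to 40.8) and Cidec (2.05 to 8.20) were dim on every array. Deficient arrays 1 and 2 differed from the remaining 4: their spiked bacterial hybridisation controls read 7.28 and 10.4 times the adequate mean against 0.734 to 1.16 elsewhere, and the signal of the 3′ actin control probe set over the 5′ one, which reflects RNA quality, was 7.56 and 6.80 against 2.35 to 4.81. Both arrays lay together above or together below all other 4 on 6 of the 11 tested member probe sets, 3 in each direction, and on 45.1% of all tested probe sets. In bulk tissue, fewer cells of a type and less RNA per cell cannot be told apart.

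The comparison asks whether a maternal diet without vitamin D went with different levels of these genes in the pups. None of the 11 tested member probe sets passed the adjusted threshold of 0.05 (limma, Benjamini-Hochberg over all tested probe sets), and neither did any other probe set (0% called). At an unadjusted p under 0.05 there were also 0 of 11 members, where 14.2% of all tested probe sets had such a p. The smallest unadjusted p among the members was 0.0577, for Slc8a1, and the adjusted p ranged from 0.357 to 0.984. The deficient mean was the higher one on 7 of the 11, against 44.7% of all tested probe sets, with a median log2 change of 0.16 against -0.05. The arrays of the diets did not overlap on 2 of the 11 (18.2%), where this held for 17.4% of all tested probe sets. Both had higher deficient values (Atp2b1 and Slc8a1), as had 6.55% of all tested probe sets, with a further 10.8% lower, so the combined share was near the background, with both member probe sets on the higher side.

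**Figure D1:**
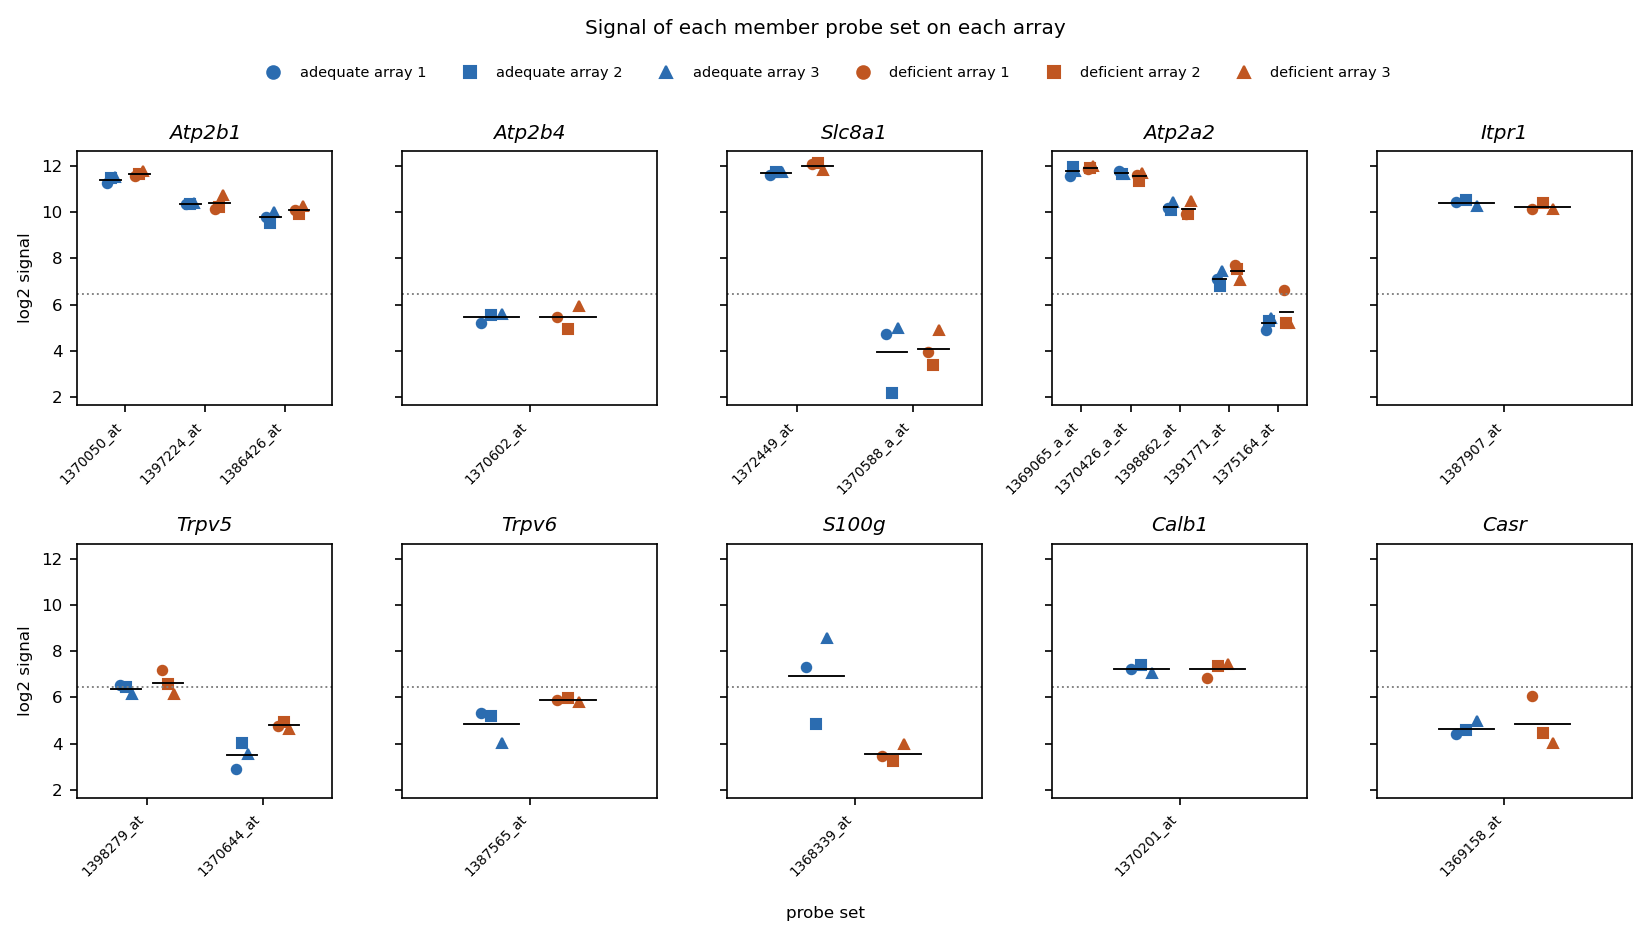
Log2 signal (vertical axis) of the 18 member probe sets (horizontal axis, by gene) on the 3 adequate (blue) and 3 deficient (orange) arrays; symbols mark the array number, black bars the mean, and the dotted line the filter at 6.46. Levels are to be compared within a probe set. On S100g the adequate arrays spread from 4.83 to 8.59 and the deficient arrays lie lower, down to 3.26, while on most bright probe sets the diets lie close together.

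Atp2b1 encodes the plasma membrane calcium ATPase of most cells, which pumps calcium out at the cost of ATP. Its probe set 1370050_at read 2425, 2847 and 2920.15 in the adequate group and 3040.3, 3239 and 3514 in the deficient group, in array order here and below. Every deficient array was above every adequate array, and the highest was deficient array 3. The log2 change was 0.26 ± 0.15 (SE), a fold of 1.197, with a 95% confidence interval of -0.07 to 0.59 and an adjusted p of 0.413 (limma). Probe set 1386426_at read 897, 742 and 1041 in the adequate group and 1085, 979 and 1226 in the deficient group, with a log2 change of 0.30 ± 0.18 (SE; adjusted p 0.416). Here only adequate array 3 reached into the deficient range. The last probe set, 1397224_at, read 1301, 1329 and 1357 in the adequate group, and 1133, 1215 and 1741 in the deficient group. Deficient arrays 1 and 2 were the lowest of the 6 and deficient array 3 the highest, so the change of 0.01 ± 0.18 (SE; adjusted p 0.984) joins values on both sides of the adequate arrays. Without deficient array 3 it was -0.18. The 3 probe sets of this pump therefore gave no single answer, although deficient array 3 was the highest of the 6 arrays on each.

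Atp2b4 encodes another pump of the same family, also found in many tissues. Its probe set 1370602_at read 36.8, 46.9 and 48.9 in the adequate group and 44.9, 30.7 and 60.8 in the deficient group, below the filter on every array. The deficient arrays held both the lowest and the highest value. Of the related pumps, Atp2b3 was tested on 1 probe set (1388037_at), at 214, 233 and 180 in the adequate group and 290.1, 274 and 196 in the deficient group, a log2 change of 0.27 ± 0.23 (SE; adjusted p 0.574). Both probe sets of Atp2b2 were below the filter.

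Slc8a1 encodes the sodium-calcium exchanger NCX1, which carries calcium out of excitable and epithelial cells in exchange for sodium. Probe set 1372449_at read 3122, 3395 and 3402 in the adequate group and 4314, 4529 and 3628 in the deficient group. The diets did not overlap, but deficient array 3 lay close to the adequate arrays and most of the difference came from deficient arrays 1 and 2. In log2 signal the groups were at 11.69 ± 0.07 and 12.01 ± 0.17 (SD, n = 3 each), a log2 change of 0.33 ± 0.15 (SE), a fold of 1.25, with a 95% confidence interval of -0.01 to 0.66 and an adjusted p of 0.357 by limma. The change was 0.42 without deficient array 3, where it passed with an adjusted p of 0.0264, as did 19.4% of all tested probe sets (8.75% as higher). That fit keeps only deficient arrays 1 and 2, which stood apart in their hybridisation and actin controls. Diet and array quality cannot be told apart there. With array weights the change was also 0.42 and passed (limma, adjusted p 0.0374), as did 3462 of all 18625 tested probe sets. With deficient array 3 as the only deficient array it was 0.14, a value given without a p because its spread would come from the adequate arrays alone, and with the hybridisation controls as a covariate 0.13 (adjusted p 0.990). The other probe set of Slc8a1, 1370588_a_at, was below the filter, at 26.7, 4.48 and 31.8 in the adequate group and 15.4, 10.4 and 29.6 in the deficient group, with the diets overlapping.

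Smooth muscle, a tissue in which NCX1 is active, was marked by a list of 8 genes, all above the filter and none near 0. Their summed signal ran from 77470 to 94509 in the adequate group and from 96383 to 163209 in the deficient group. Deficient arrays 1 and 2 gave the highest sums, 149960.0 and 163209, so Slc8a1 and the summed markers were high on the same arrays. Of all tested probe sets, 19.1% were likewise highest on that pair. Myh11, a smooth muscle myosin, read 33213 and 31768 on that pair and 14781 to 18551 elsewhere on its brighter probe set. Its other probe set was lowest on the pair, at 323 and 332 against 480 to 855 elsewhere. At their brightest probe sets, Tagln, Cnn1, Mylk and Actg2 were also highest on the pair. Acta2 read 4125 and 4668 on the pair, within its range of 4052 to 6139 elsewhere. Synpo2 read 5246 and 6099 on the pair and 3370 to 5370 elsewhere. Des, the desmin gene, read 4946 and 3961 on the pair and 5586 to 6550.0 elsewhere. The part of smooth muscle in the Slc8a1 difference was not tested. The tested probe sets whose log2 signal followed Slc8a1 most closely were those of Cmtm6, a membrane protein (Pearson's r = 0.996), Eif3a, a translation initiation factor (0.994), and Arhgap21, a GTPase-activating protein (0.994), each over the same 6 arrays and chosen as the closest of all, as a description. Arrays that share their scaling and the split of deficient arrays 1 and 2 enter each of these values.

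Atp2a2 encodes SERCA2, the pump that returns calcium to the endoplasmic reticulum. Its 5 probe sets differed in direction. Probe set 1369065_a_at read 3036, 3959.9 and 3536 in the adequate group and 3706, 3863 and 4139 in the deficient group, a log2 change of 0.16 ± 0.16 (SE; 95% confidence interval -0.19 to 0.51). Probe set 1370426_a_at read 3573, 3191 and 3231 in the adequate and 3140.2, 2607 and 3306 in the deficient group, a log2 change of -0.15 ± 0.15 (SE; -0.49 to 0.19). Both pairs of groups overlapped. Probe set 1398862_at read 1158, 1096 and 1373 in the adequate group, and 974, 986 and 1451 in the deficient group. Its change of -0.11 ± 0.19 (SE) joins deficient arrays 1 and 2, the lowest of the 6, with deficient array 3, the highest. The reverse held on 1391771_at, at 137, 112 and 177 against 211, 187 and 133, where deficient arrays 1 and 2 were the highest, with a log2 change of 0.31 ± 0.27 (SE). The adjusted p of these 4 ranged from 0.574 to 0.796. The last, 1375164_at, was below the filter at 29.9 to 99.4, and only deficient array 1 exceeded 43.2. Striated muscle was marked by 6 measured genes of 7, with a summed signal of 3296 to 3843 in the adequate and 2705 to 3307 in the deficient group. Tnnt2 and Ckm made up most of this sum. In mean log2 signal Tnnt2, Ckm, Tnnt3 and Acta1 were lower in the deficient group, and Myh3 and the dim Myh8 were higher. The mean log2 signal of the 6 genes overlapped, at 7.42 to 8.47 in the adequate and 8.07 to 8.39 in the deficient group.

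Atp2a3, which encodes the related pump SERCA3, read 884, 642 and 801 in the adequate group and 412, 387 and 622 in the deficient group (1368477_at). The diets did not overlap, the log2 change was -0.73 ± 0.22 (SE), and the adjusted p was 0.344. The log2 ratio of Atp2a3 to the brightest Atp2a2 probe set was lower on each deficient array (-3.32 to -2.73) than on any adequate array (-2.62 to -1.78). An exact two-sided permutation test of that ratio gave p = 0.1, the smallest that 3 against 3 arrays allow, and 0.2 adjusted over the 2 pairs of relatives compared. The skeletal muscle pump Atp2a1 was below the filter, at 9.56 to 115.

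Itpr1 encodes the inositol trisphosphate receptor that lets calcium out of the reticulum. It read 1372, 1475 and 1252 in the adequate group and 1126, 1337 and 1136 in the deficient group (1387907_at). The groups overlapped only through deficient array 2, and the log2 change was -0.19 ± 0.15 (SE; 95% confidence interval -0.53 to 0.15; adjusted p 0.544). Of its relatives, Itpr3 read 521, 474 and 549 against 365, 299 and 446, a log2 change of -0.49 ± 0.20 (SE; adjusted p 0.344) without overlap, and Itpr2 had 0.35 ± 0.27 on its brighter probe set (1369676_at). The log2 ratio of Itpr3 to Itpr1 overlapped between the diets, with an exact permutation p of 0.5.

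**Figure D2:**
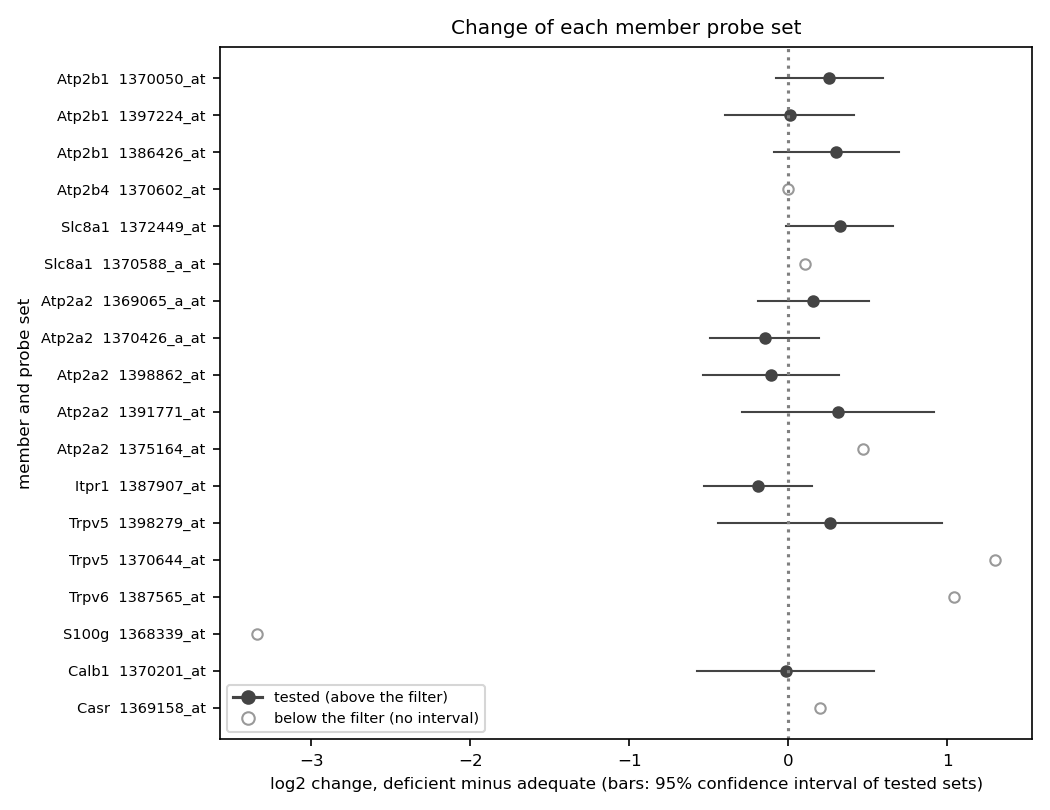
Log2 change, deficient minus adequate (horizontal axis), of each member probe set (vertical axis), with bars for the 95% confidence interval from limma; filled points were tested, and open points lie below the filter and have no interval, since their size depends on the offset. The tested changes lie between -0.19 and 0.33 and each interval crosses 0, while the open point of S100g lies at -3.34.

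The entry channels Trpv5 and Trpv6 were dim, with mean signals near the filter or below it. Trpv5, the calcium entry channel of the distal kidney tubule, read 92.6, 88.3 and 70.7 in the adequate and 148, 96.2 and 70.4 in the deficient group on 1398279_at, the only probe set of the entry channels that passed the filter. Deficient arrays 1 and 2 were the highest and deficient array 3 the lowest, and the log2 change was 0.26 ± 0.32 (SE; 95% confidence interval -0.44 to 0.97; adjusted p 0.687). The other Trpv5 probe set, 1370644_at, read 7.43, 16.4 and 11.8 against 27.6, 31.0 and 25.2. All 3 deficient arrays were higher, at signals well under the cutoff of 88.2. Trpv6, the entry channel of the intestine and placenta, read 40.7, 36.2 and 16.2 in the adequate and 59.9, 62.95 and 55.4 in the deficient group, again without overlap and below the filter on every array. The size of these differences cannot be read from such dim signals: the log2 difference was 1.30 for the dim Trpv5 probe set and 1.04 for Trpv6 with no offset, and 0.33 and 0.45 with an offset of 50. For both probe sets, deficient array 3 by itself was above every adequate array. Kidney tubule markers were as dim: 1 of 6, Lrp2, passed the filter, and the summed signal was 356 to 397 in the adequate and 324 to 504 in the deficient group, highest on deficient array 1.

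S100g encodes calbindin-D9k, the small cytosolic carrier of calcium in the enterocytes of the duodenum and a classical vitamin D target there. The adequate arrays read 161, 28.5 and 384, and the deficient arrays 11.0, 9.61 and 16.0, in array order. All deficient arrays were lower than all adequate arrays, but adequate array 2 was itself under the cutoff and the adequate arrays differed widely. In log2 signal the groups were at 6.92 ± 1.91 and 3.58 ± 0.38 (SD, n = 3 each). The mean over the 6 arrays was under the filter, so S100g was not among the tested probe sets, and no fold is given because the deficient signals are dim. The size of the difference cannot be read from these signals: the log2 difference of the group means was -3.34 with no offset and -1.64 with an offset of 50. Deficient array 3 (16.0) was lower than every adequate array, but adequate array 2 (28.5) was the nearest and both were under the cutoff.

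The spread of S100g among the adequate arrays was set beside that of gut markers. Of the 7 intestinal epithelium markers 5 had a probe set and 2 passed the filter. Their summed signal was 1116, 693 and 2331 in the adequate group and 754, 811 and 654 in the deficient group. Apoa4, an apolipoprotein of enterocytes, read 198, 5.42 and 509 in the adequate group, in the same order as S100g, and 5.91, 166 and 2.92 in the deficient group. Fabp2, the intestinal fatty acid binding protein, read 70.3, 4.76 and 107 in the adequate group and 29.7, 86.2 and 3.99 in the deficient group. Both were lowest on adequate array 2 within their group, as S100g was, and highest on deficient array 2 within the deficient group, where S100g was lowest. The remaining markers did not all share this pattern. Cdh17, an adhesion protein of enterocytes, read 87.4, 49.6 and 643 against 118, 118 and 62.6. Anpep, a brush border peptidase, read 712, 572 and 859 against 538, 378 and 575, with its lowest value on deficient array 2. Vil1, which encodes villin of the microvilli, read 48.5, 60.4 and 213 against 62.8, 63.4 and 9.64, with adequate array 1 below adequate array 2. The part of gut tissue in the S100g difference was not tested.

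**Figure D3:**
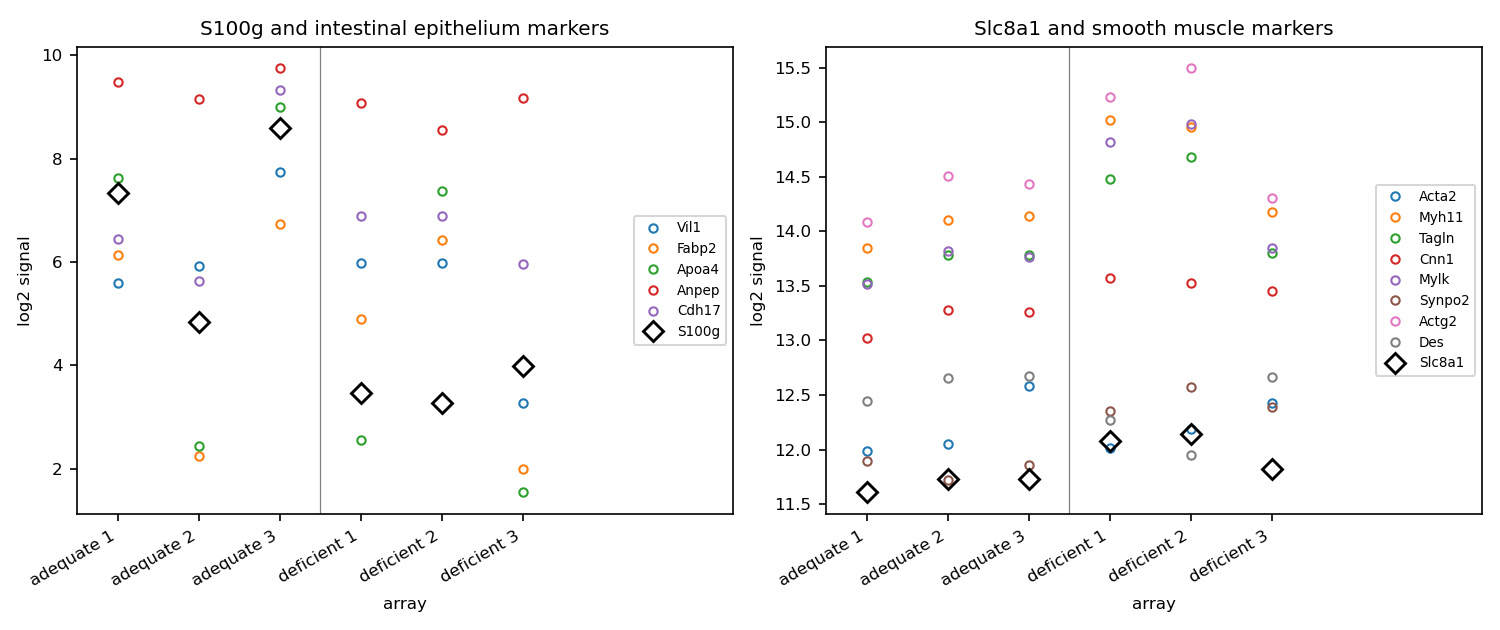
Log2 signal (vertical axis) on each array (horizontal axis) of S100g with 5 intestinal epithelium markers on the left and of Slc8a1 (1372449_at) with 8 smooth muscle markers on the right; diamonds are the member, circles the markers, and the grey line divides the diets. All 5 gut markers and S100g are highest on adequate array 3, and the markers differ in their order on the other arrays. Slc8a1 and the brighter Myh11 probe set are highest on deficient arrays 1 and 2, while Des is lowest there.

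Calb1 encodes calbindin-D28k, the larger buffer of kidney tubule and nerve cells. It read 151, 167 and 133 in the adequate and 115, 164 and 173 in the deficient group (1370201_at), so the groups overlapped fully. The log2 change was -0.02 ± 0.25 (SE), with a 95% confidence interval of -0.57 to 0.54 and an adjusted p of 0.982. Its relative Calb2, which encodes calretinin, a buffer of nerve and mesothelial cells, read 743, 688 and 748 against 595, 638 and 834, a log2 change of -0.09 ± 0.18 (SE; adjusted p 0.813).

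Casr encodes the calcium-sensing receptor of the parathyroid and kidney. It read 21.2, 24.0 and 31.2 in the adequate group and 67.7, 21.9 and 16.3 in the deficient group, below the filter on every array. Only deficient array 1 was high, and the deficient arrays held both the lowest and the highest value. Pth, the 1 parathyroid marker of 2 with a probe set, was as dim, at 6.60 to 15.5 in the adequate group and 49.97, 1.00 and 17.9 in the deficient group. Counted over all 18 member probe sets with no filter, the diets did not overlap on 5 (27.8%), 4 with the deficient arrays higher (Slc8a1, Atp2b1, Trpv5 and Trpv6, 1 probe set each) and 1 with them lower (S100g). Among all 31042 probe sets 15.9% did not overlap, 8.13% with the deficient arrays higher and 7.78% with them lower. In the fit with no filter, 2 of the 18 had an unadjusted p under 0.05, as did 11.2% of all probe sets.

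A wider list of 67 further calcium handling genes was read in the same fit; 60 had a probe set, and 57 probe sets of 46 genes were tested. None passed the adjusted threshold, and 8 (14.0%) had an unadjusted p under 0.05, 2 with higher and 6 with lower values in the deficient group, beside 6.03% and 8.18% of all tested probe sets. The median log2 change was -0.04, close to that of all tested probe sets. The groups did not overlap on 10 of the 57 (17.5%), 3 higher and 7 lower, near the 17.4%, 6.55% and 10.8% of all tested probe sets. Taking each gene at its brightest tested probe set, the 4 genes with the smallest unadjusted p were Atp2a3, described above, Trpm7, Calm2 and S100b, each with an adjusted p of 0.344. Trpm7, an ion channel fused to a kinase, read 1428, 1782 and 1522 in the adequate and 2536, 3186 and 1727 in the deficient group (1398355_at), a log2 change of 0.62 ± 0.22 (SE), but -0.07 ± 0.23 on its other tested probe set. Calm2, a calmodulin gene, read 11490, 13628 and 14004 against 22753, 21629 and 14072, a change of 0.55 ± 0.22 (SE). S100b, a buffer and sensor of glial cells, read 665, 636 and 945 against 380, 294 and 721, a change of -0.77 ± 0.31 (SE). On Trpm7, Calm2 and S100b, deficient arrays 1 and 2 lay outside the range of the adequate arrays, and deficient array 3 was much nearer to it or within it. The voltage-gated channels had 9 tested probe sets, of which 6 were higher and 3 lower, and the exchangers 6, of which 2 were higher and 4 lower, with 0 in either role at an unadjusted p under 0.05.

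**Figure D4:**
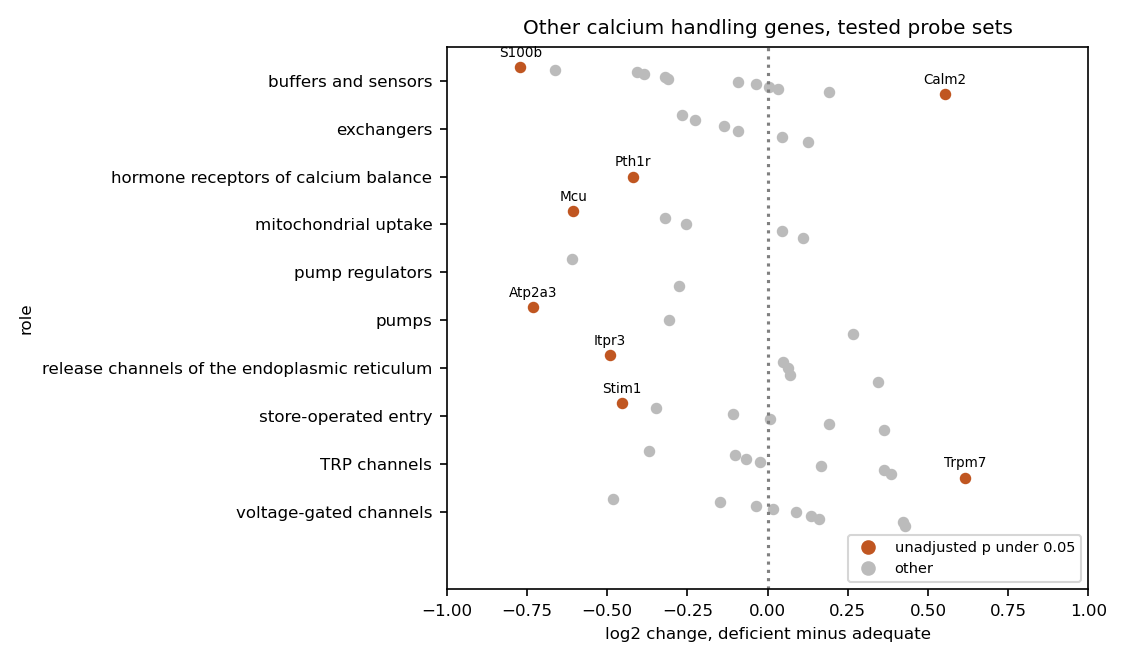
Log2 change, deficient minus adequate (horizontal axis), of the 57 tested probe sets of other calcium handling genes, by role (vertical axis); orange points have an unadjusted p under 0.05 and are named, 2 higher and 6 lower, and none passes the adjusted threshold.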

How the data were processed

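Total RNA of mesenterial fat from newborn rats was measured on 6 arrays, 3 per maternal diet, grouped by sample title. The deposited values are linear intensity signals, 1 per probe set and array, made by the authors with MAS5 and Affymetrix Expression Console, per the submitters' processing notes. The MAS5 settings and scaling target are not stated, and detection calls were not used here. The 2% trimmed mean was 500.1 to 500.2 on every array, so differences in total RNA are removed, and dim signals vary strongly on the log scale.

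The 57 control probe sets were left out, and the other 31042 were taken to log2 as they stood. Probe sets under the 40th percentile of mean log2 signal were not tested. Deficient minus adequate was fitted over all 18625 tested probe sets by limma's lmFit and eBayes with the trend option (limma 3.58.1, R 4.3.3, two-sided, Benjamini-Hochberg). On simulated data this fit recovered 37% of log2 changes of 1 and 90% of log2 changes of 2, with 6 false calls. The simulation drew independent noise from each probe set's spread within the groups, and it missed most changes of the smaller size. These shares are over all tested probe sets, not the members, whose 95% confidence intervals lay between -0.57 and 0.97. Names came from the platform annotation: 20826 probe sets had 1 symbol, 436 several (not named) and 9780 none. A GRCr8 gene table matched 20758 by Entrez identifier and changed 0 symbols.

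The members and lists were chosen with earlier results of these data known. Every member and probe set is named. Of the wider list, the 4 genes with the smallest unadjusted p (brightest tested probe set) and the closest relatives of the members are named, and for the brightest member probe set, the 3 most similar genes. Mcu, Stim1, Pth1r and Pln were named after their values were seen, as were the marker genes given singly. Marker lists use the brightest probe set of each gene. The ratios of relatives used exact permutation tests (scipy 1.17.1). Alternatives changed the scaling (quantile, median centring), the filter (none, 60th percentile), the offset (50), the eBayes options (no trend, robust), the arrays used (each left out, deficient array 3 alone, array weights) and the model (replicate block, hybridisation covariate). For the 3 dim probe sets without overlap, no filter was combined with several of these, chosen after seeing the data. Figures were drawn with matplotlib 3.10.9.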

Additional observations from a re-analysis of the deposited data

How the results depend on the processing

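The number of probe sets past the adjusted threshold was 0 in the reported fit, 3462 with array weights and between 0 and 3614 when 1 array was left out, the highest being without deficient array 3. Among the member probe sets it was 0, 1 with array weights and 0 to 1 when 1 array was left out, the 1 being Slc8a1 both times. At an unadjusted p under 0.05 the members numbered 0, 2 with no filter, 1 with array weights, 2 with deficient array 3 alone and 0 to 1 when 1 array was left out. For the 57 probe sets of other calcium handling genes that number was 8, 5 after quantile normalization, 20 with array weights, 1 with the hybridisation covariate, 1 with deficient array 3 alone, and 2 (without deficient array 1 or 2) to 20 (without deficient array 3). The share of all tested probe sets with such a p was 14.2%, and under these alternatives 13.5%, 35.9%, 4.22%, 6.52%, 8.85% or 4.86%, and 35.3%, in that order. With deficient array 3 alone the spread comes from the adequate arrays only. The cause was not tested.

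The sign turned on 15 occasions, each for a probe set whose reported change was at most little above its standard error, and the cause was not tested. With the hybridisation covariate Calb1 was at 0.15, Trpv5 (1398279_at) at -0.13 and Atp2a2 at 0.0181 (1370426_a_at), -0.0315 (1391771_at) and 0.23 (1398862_at). With deficient array 3 alone Calb1 was at 0.21, Trpv5 at -0.24 and Atp2a2 at -0.0774 (1391771_at) and 0.27 (1398862_at). Atp2b1 (1397224_at) was at -0.10 with array weights and, when 1 array was left out, between -0.18 (without deficient array 3) and 0.1301 (without deficient array 1), and at -0.0054 without adequate array 1. In the same way Trpv5 was at -0.018 without deficient array 1 and at most 0.5161, without deficient array 3, and Calb1 was at 0.0638 without adequate array 2 and 0.17 without deficient array 1. Slc8a1, both other Atp2b1 probe sets, Itpr1 and, with no filter, S100g, Trpv6 and the dim Trpv5 probe set kept their direction under each alternative run. Of these, Slc8a1 (1372449_at), Atp2b1 (1370050_at), S100g, Trpv6 and the dim Trpv5 probe set had no overlap between the diets. For them, leaving arrays out, weighting arrays or adding an offset could not turn the sign, so those outcomes were fixed in advance. For every probe set, the filters, the eBayes options and the replicate block left the log2 change itself as it was. The sign could not turn under those settings either.

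Whether the replicate numbers pair the samples could not be settled with 3 arrays per group. Deviations of same-numbered arrays from their group means correlated at 0.107, 0.153 and 0.0066. The highest correlations of adequate arrays 1, 2 and 3 with a deficient array of another number were -0.0056, -0.0021 and 0.0512. Numbers 1 and 2 therefore correlated best with their own number, weakly, and number 3 did not. With the replicate block 0 probe sets passed, and 9 probe sets of the other calcium handling genes had an unadjusted p under 0.05. Without detection calls, signals under the cutoff could not be told from background.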

Other observations

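Several other calcium handling genes had tested probe sets that differed in direction. Mcu, the channel of mitochondrial calcium uptake, read 508, 488 and 579 on the adequate and 278, 332 and 442 on the deficient arrays on 1386569_at, a log2 change of -0.61 ± 0.21 (SE), but 811, 868 and 917 against 722, 1082 and 909 on 1378987_at, a change of 0.05 ± 0.18. Stim1, the calcium sensor of the reticulum, had -0.45 ± 0.19 on 1376024_at and 0.19 ± 0.18 on 1382121_at. None of these passed the adjusted threshold (limma).

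Pln, the phospholamban gene, whose product restrains SERCA2, was lower on both tested probe sets without passing. The brighter one (1370157_at) read 2889, 1414 and 2613 in the adequate and 1820.4, 995 and 1654 in the deficient group, with adequate array 2 inside the deficient range and a log2 change of -0.61 ± 0.30 (SE; adjusted p 0.362). Pth1r, the receptor of parathyroid hormone, read 505, 512 and 429 against 357, 347 and 374 (1370259_a_at), without overlap, a change of -0.42 ± 0.18 (SE; adjusted p 0.344). Its other probe set was below the filter and ran the other way, at 25.1 to 40.7 in the adequate and 50.3 to 62.6 in the deficient group.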
